A study of Drosophila melanogaster with 16 samples.

Results

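The genes described here are those of the cytochrome P450 superfamily, taken as every gene of the RefSeq annotation whose symbol is Cyp followed by a digit. The annotation is that of the Release 6 plus ISO1 MT assembly, the assembly behind dm6, and the rule found 87 genes of 17807 on the chromosomes that carry peaks. An ATAC-seq peak was counted for a gene when its midpoint lay in the gene or within 1000 bp of either end, which gave 65 peaks at 59 genes, out of 8069 peaks in all. Of the 87 genes, 85 are P450 genes, 83 of them protein coding and 2 pseudogenes (Cyp6t2Psi and Cyp6a15Psi). The remaining members, Cyp1 and Cyp40, share the letters of the symbol only: they are named for cyclophilins, a class of protein-folding enzymes. Without them 63 peaks at 57 of 85 genes are left. The set was chosen by symbol, and picked for description on the difference of log2 accessibility between temperatures, so that difference and the false discovery rate (FDR) of the same contrast are given as a description, with no test.

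ATAC-seq marks open DNA by cutting it with a transposase, and the reads in a peak measure how accessible it is. The libraries were made from fat body dissected from w1118 Drosophila melanogaster virgin females, 25 flies per library, reared at 25 °C, moved to their condition within 8 h of eclosion and kept there for 25 days. There were 4 groups of 4 libraries: 11 °C with S-methoprene, 11 °C with ethanol, 25 °C with S-methoprene and 25 °C with ethanol. Ethanol of 99% was the vehicle of S-methoprene, a juvenile hormone analog given at 39.4 mM, and all flies received 10 µL of one or the other by evaporation every 2 days. Flies were picked by their ovaries: regressed, as in diapause, at 11 °C with ethanol, and large in the other 3 groups. Where 11 °C flies with regressed ovaries enter a mean, temperature and ovary state cannot be told apart.

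All values come from the authors' deposited table of 25 °C against 11 °C. For each peak it gives the log2 mean number of normalised reads at each temperature, a fitted log2 fold change and an FDR. It holds no value per library, so no spread between replicates, no standard error and no effect of S-methoprene can be given, and the depth of the libraries is unknown. The overall mean of a peak weighs 25 °C libraries by 0.429, which 4 libraries at 11 °C with 3 at 25 °C would give, or 8 with 6. Which libraries these were is not stated. Below, "level" is a number of normalised reads or its log2, and "difference" is the log2 level at 25 °C minus that at 11 °C, so a positive difference means lower at 11 °C. Every peak at these genes is given as 401 bp wide, so their levels refer to the same width. Other influences on the reads of a site were not examined. In bulk tissue, fewer cells with an open site and less opening per cell cannot be told apart.

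Cytochrome P450s are heme enzymes that insert an oxygen atom into small molecules, with electrons from a reductase. Insects use them to clear plant toxins and insecticides, to make and break down ecdysteroids, and to make the hydrocarbons that seal the cuticle. Fly P450s fall into 4 clans. The CYP3 clan (families such as Cyp6, Cyp9 and Cyp28) and the CYP4 clan (Cyp4, Cyp313) hold large, often tandem families, many of them for detoxification. The mitochondrial clan (Cyp12, Cyp49, Cyp301) takes electrons from ferredoxin, and the small CYP2 clan holds hormone and developmental enzymes. Fat body is, with midgut and Malpighian tubule, a main site of detoxification in insects.

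A minority of P450 peaks, with genes of all 4 clans among them, was called less accessible at 11 °C, and a single peak was called more accessible. At an authors' FDR under 0.05, 15 of the 63 P450 peaks were lower at 11 °C and 1 was higher. Counts of peaks lower or higher at 11 °C are of such calls, unless another threshold is named. By sign alone, 38 of the 63 had a positive difference and 25 a negative one. Over all 8069 peaks, 12.2% of peaks were called lower and 10.0% higher at 11 °C. Since this contrast belongs to the rule, nothing is read from these shares. The lower peaks belong to 15 genes, and the higher one to Cyp4e3. With the FDR under 0.01 there were 11 lower peaks and 1 higher, beside 8.55% and 6.35% of all peaks. With the FDR under 0.1 there were 16 lower and 2 higher, beside 14.1% and 12.7% of all peaks.

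**Figure D1:**
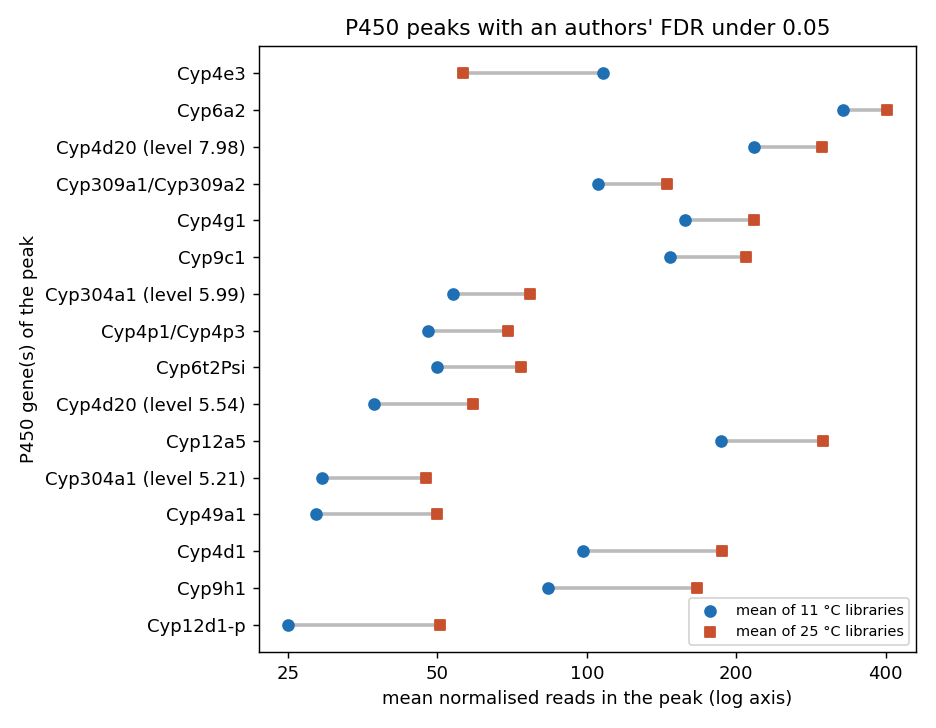
Mean normalised reads (log axis) at 11 °C (circles) and 25 °C (squares) in the 16 P450 peaks with an authors' FDR under 0.05, ordered by difference; the log2 level stands beside genes with 2 such peaks. Cyp4e3, at the top, is the peak where 11 °C lies above 25 °C, and Cyp12d1-p, at the bottom, has the lowest level at 11 °C, 25.0 reads.

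Differences were small at most P450 peaks. The median difference was 0.03 over the 65 peaks of the rule and 0.06 over the 63 P450 peaks, with quartiles of -0.11 and 0.28 for the P450 peaks. Over all 8069 peaks the median was -0.02, with quartiles of -0.17 and 0.16. P450 differences ran from -0.93 to 1.01, while those of all peaks ran from -2.07 to 3.43. At 51 of the 63 P450 peaks the difference was under 0.5 in size, or 81.0%, beside 86.2% of all peaks. The 47 P450 peaks that were not called had a median difference of -0.01. The cyclophilin gene Cyp1 held 416.8 reads at 11 °C and 385.2 at 25 °C (FDR 0.556), and Cyp40 held 150.9 and 136.8 (FDR 0.523).

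Levels set P450 peaks little apart from other peaks, and the median difference was largest in the lowest quartile of level. By quartile of level, lowest first, the median difference of P450 peaks was 0.52, 0.04, 0.08 and -0.0008. For all peaks it was 0.12, 0.005, -0.03 and -0.09. The median P450 peak held 176.1 normalised reads, where the median over all peaks was 162.7. Of the 63 P450 peaks, 13 lay in the lowest quartile of level of the table and 16 in the highest. In the lowest quartile 7 of the 13 P450 peaks were lower at 11 °C and 1 was higher, where 24.2% and 7.83% of all peaks of that quartile were. Outside it, 8 of 50 P450 peaks were lower at 11 °C and none higher, where 8.13% and 10.7% of all peaks outside that quartile were. The called P450 peaks had a median log2 level of 6.66 and the others 7.66. Low levels therefore stand beside many of the differences given here, and their part in them was not tested.

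**Figure D2:**
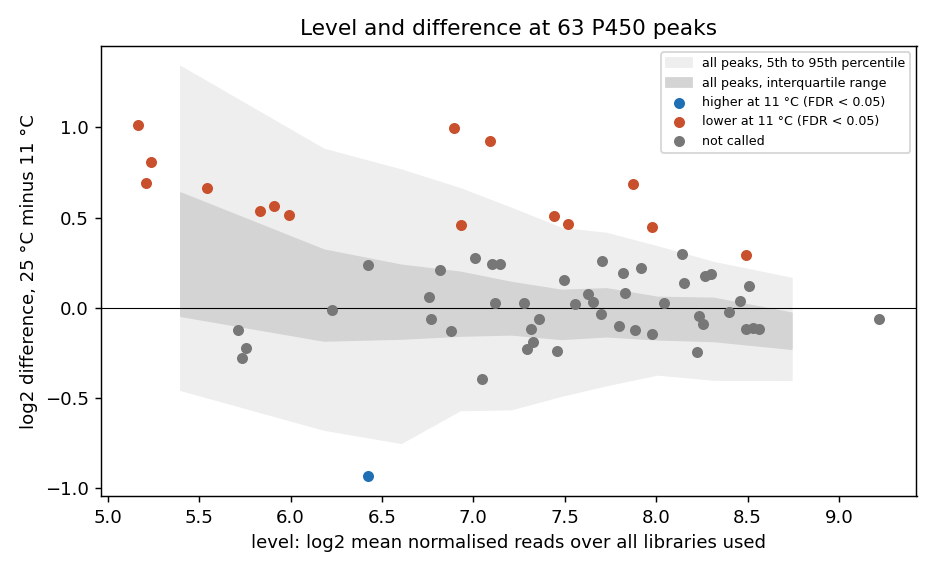
Level (log2 mean normalised reads over all libraries used) and difference (log2, 25 °C minus 11 °C) of the 63 P450 peaks, over grey bands for all 8069 peaks binned by level. The 7 called peaks with the lowest levels, all lower at 11 °C, lie left of a level of 6, where the bands for all peaks are also shifted above 0.

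The CYP3 clan, which holds many of the insecticide-metabolising enzymes, had the most peaks and small differences. Of its 40 genes 29 had a peak, 31 peaks in all. At 11 °C 5 peaks at 6 genes were lower and 0 higher, beside 12.2% and 10.0% of all peaks. The median difference was 0.03. Its largest difference was at Cyp9h1, at the gene's higher-coordinate end (chromosome arm 2R, 12842354 to 12842754), with 83.5 reads at 11 °C and 166.5 at 25 °C. The difference there was 0.995, and the authors' fitted log2 fold change 0.91 (FDR 1.21e-10). The same peak lies within reach of the odorant receptor gene Or49b. Cyp9c1, the other called member of its family, held 147.3 reads at 11 °C and 209.6 at 25 °C (difference 0.51, FDR 0.000123), in a peak shared with CG13594 and an antisense RNA gene. The remaining Cyp9 genes had differences between -0.06 and 0.24: Cyp9b1 and Cyp9b2 share a peak, Cyp9f2 had one of the highest P450 levels with 350.7 reads at 11 °C and 381.1 at 25 °C, and Cyp9f3 had 110.9 and 106.4.

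In family Cyp6, which includes the best known resistance genes of the fly, 19 of 25 genes had a peak and 2 were called, both lower at 11 °C. Cyp6a2, which metabolises several insecticides, had 328.3 reads at 11 °C and 401.8 at 25 °C in a peak 128 bp from its end and within reach of Epac. That difference, 0.29 (FDR 0.0207), was the smallest of the called P450 peaks. The pseudogene Cyp6t2Psi had 49.9 reads at 11 °C and 73.7 at 25 °C, a difference of 0.56 (FDR 0.00232), with no other gene in reach. Cyp6g1, whose overexpression gives DDT resistance, had 2 peaks with opposite signs. The peak at its lower-coordinate end had 131.2 reads at 11 °C and 155.3 at 25 °C (FDR 0.201). The peak between it and Cyp6g2 had 147.3 reads at 11 °C and 111.9 at 25 °C, a difference of -0.40, and was not called (FDR 0.0567). It was the only other P450 peak with a difference below -0.3 besides Cyp4e3. Cyp6t1 was the closest to a call among the peaks lower at 11 °C, with 256.8 reads at 11 °C and 316.2 at 25 °C (FDR 0.0538).

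The remaining Cyp6 peaks, at 14 genes without a call named above, include the highest level of the superfamily. Cyp6v1 had the highest of all, with 607.9 reads at 11 °C and 582.3 at 25 °C (difference -0.06). The 2 peaks of Cyp6d5 had 391.7 and 340.6 reads at 11 °C and 361.1 and 334.6 at 25 °C. Neither gene was called. Cyp6a17, needed for the fly's temperature preference, shares a peak with its near neighbour Cyp6a23, with 167.4 reads at 11 °C and 160.3 at 25 °C (FDR 0.760). Cyp6a20, linked to aggression in male flies, shares one with Cyp6a9, with 226.2 reads at 11 °C and 263.2 at 25 °C (FDR 0.136). The drug-inducible Cyp6a8 and Cyp6t3, an enzyme of ecdysteroid synthesis in the larva, had no peak.

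Cyp309a1 and Cyp309a2 share the fifth called peak of the clan. It lies where the genes meet (2L, 2564754 to 2565154) and had 105.3 reads at 11 °C and 144.8 at 25 °C, a difference of 0.46 (FDR 0.00896). Cyp28a5, at the peak it shares with the hemocyte receptor gene NimC1, had 314.2 reads at 11 °C and 294.7 at 25 °C and was not called, and the other 3 Cyp28 genes had no peak. Cyp317a1 had 2 weak peaks with differences of -0.28 and 0.24, neither called.

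The CYP4 clan held the one P450 peak that was called higher at 11 °C. Of its 32 genes 18 had a peak, 19 peaks in all, with a median difference of 0.06. At 11 °C 5 peaks at 5 genes were lower and 1 was higher, beside 12.2% and 10.0% of all peaks. Cyp4e3, linked to permethrin tolerance in the Malpighian tubule, had 107.7 reads at 11 °C and 56.4 at 25 °C. The difference was -0.93 and the authors' fitted log2 fold change -0.85 (FDR 1.10e-05). The peak lies at the gene's higher-coordinate end (2L, 9749881 to 9750281) and no other gene is in reach. It is in the lowest quartile of level, where 7.83% of all peaks were higher at 11 °C. Its relatives Cyp4e1 and Cyp4e2 share a peak with a difference of 0.28, and Cyp4e2 has another with -0.12, none of them called.

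The largest difference of the CYP4 clan in the other direction was at Cyp4d1, which was called at 1 of its 2 peaks. The peak 82 bp outside its higher-coordinate end (X, 2162062 to 2162462), also in reach of CG3630, had 98.5 reads at 11 °C and 186.9 at 25 °C (difference 0.92, FDR 1.61e-08). The peak 267 bp outside the other end, also in reach of wapl, had 381.2 reads at 11 °C and 352.8 at 25 °C (difference -0.11, FDR 0.594). Cyp4d20 was lower at 11 °C at both of its peaks, both also in reach of Svil. The one within the gene had 37.3 reads at 11 °C and 59.02 at 25 °C (difference 0.66, FDR 0.00314), and the one at its end 217.6 and 297.2 (difference 0.45, FDR 3.41e-05). The other Cyp4d genes with a peak, Cyp4d2, Cyp4d8 and Cyp4d14, had differences of 0.03, -0.24 and 0.06, none called. Cyp4d21, which is male-biased in the fat body of the head, had no peak in these females.

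Cyp4g1 makes cuticular hydrocarbons in oenocytes, cells that lie against the abdominal fat body. Its single peak, 39 bp inside the higher-coordinate end (X, 469096 to 469496) and in reach of CG32816, had 157.6 reads at 11 °C and 217.7 at 25 °C. It was lower at 11 °C, with a difference of 0.47 and a fitted log2 fold change of 0.34 (FDR 0.0119). A list of 6 oenocyte genes, Cyp4g1 included, had peaks at 6 of 6. Of their 18 peaks 7 were lower at 11 °C and 1 higher, beside 12.2% and 10.0% of all peaks. Their summed level was 3546 reads at 11 °C and 3769 at 25 °C. Of the 7, 2 were at the fatty acid synthase gene FASN3, with 44.3 and 35.1 reads at 11 °C and 85.0 and 75.6 at 25 °C. Another 3 were at svp, whose other 5 peaks were not called. The peak higher at 11 °C was at spidey, also in reach of snz, with 310.9 reads at 11 °C and 231.7 at 25 °C (FDR 0.000451). Whether the share of oenocytes in the dissections differed was not tested. Cyp4g15, the close relative of Cyp4g1 in the nervous system, had 221.8 reads at 11 °C and 234.9 at 25 °C (FDR 0.694).

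The tandem genes Cyp4p1, Cyp4p2 and Cyp4p3 hold 2 peaks, both in reach of hig. The one between Cyp4p1 and Cyp4p3 had 47.8 reads at 11 °C and 69.4 at 25 °C, a difference of 0.54 with an FDR of 0.0256, the weakest call among P450 peaks. The one between Cyp4p2 and Cyp4p1 had 187.2 reads at 11 °C and 190.0 at 25 °C (FDR 0.878). In family Cyp313 only Cyp313b1 had a peak, beside 2 tyrosine tRNA genes, and the other 5 genes had none.

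**Figure D3:**
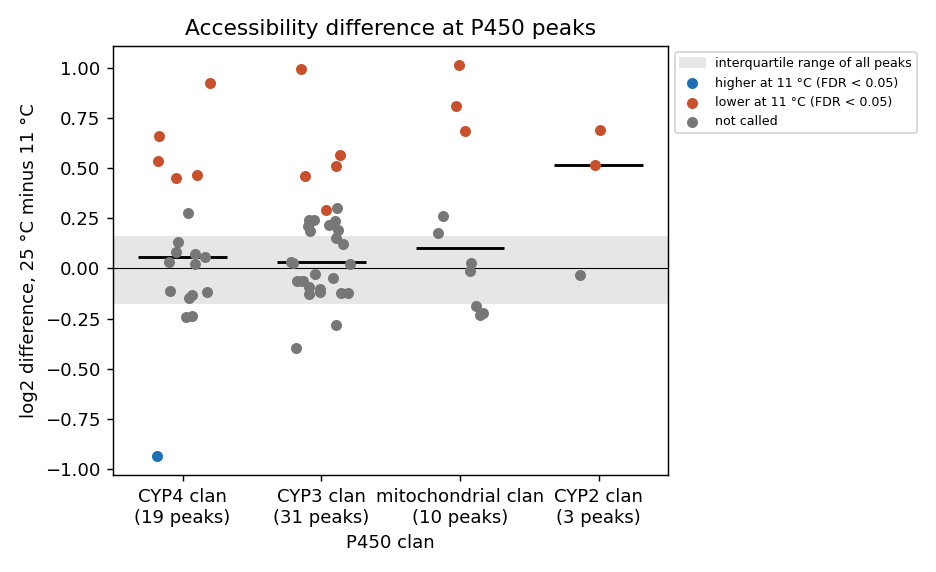
Difference (log2, 25 °C minus 11 °C) of each P450 peak by clan; black bars are medians, and the grey band is the interquartile range of all 8069 peaks, from -0.17 to 0.16. In each clan most uncalled peaks lie in or near the band, and Cyp4e3 is the lone called peak below 0.

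The mitochondrial clan had 9 genes under the symbol rule, 8 of them with a peak. Of its 10 peaks 3 were lower at 11 °C, beside 12.2% of all peaks, and 4 lay in the lowest quartile of level. In that quartile 24.2% of all peaks were lower, and nothing is read from the counts by clan. The largest difference of any P450 peak was at Cyp12d1-p, a copy of a gene whose overexpression gives DDT resistance. By size of the authors' fitted log2 fold change, Cyp9h1 (0.91), Cyp4d1 (0.87) and Cyp4e3 (-0.85) ranked above it. The Cyp12d1-p peak lies 1965 bp inside the gene and had 25.0 reads at 11 °C and 50.5 at 25 °C. Its difference was 1.01 (fitted log2 fold change 0.77, FDR 0.000699), and its level was low. It was the lowest level of all P450 peaks. Its near-identical copy Cyp12d1-d had no peak, and the sources used here do not give how reads matching both copies were counted, so the value of Cyp12d1-p is uncertain. Cyp49a1 had 28.5 reads at 11 °C and 49.98 at 25 °C at its lower-coordinate end, in a peak also in reach of the G protein gene Galphao (difference 0.81, FDR 0.000292).

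Cyp12a5 had 2 peaks, both with fewer reads at 11 °C, of which 1 was called. The peak 113 bp outside the lower-coordinate end of Cyp12a5 (3R, 19132335 to 19132735), also in reach of CG6040, had 186.0 reads at 11 °C and 298.9 at 25 °C (difference 0.68, FDR 4.59e-07). The peak between Cyp12a5 and Cyp12a4, whose overexpression gives lufenuron resistance, had 291.9 reads at 11 °C and 329.5 at 25 °C (FDR 0.185). The difference between these peaks was not tested. The peaks of Cyp12b2, Cyp12c1, Cyp12e1 and of Cyp301a1, an enzyme of cuticle formation, had differences from -0.23 to 0.26, none called.

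The CYP2 clan had 4 genes under the symbol rule and peaks at 2 of them. Cyp304a1 was lower at 11 °C at both peaks, both also in reach of grsm and Spc25. They held 29.3 and 53.7 reads at 11 °C and 47.3 and 76.9 at 25 °C, differences of 0.69 (FDR 0.00674) and 0.52 (FDR 0.0191). Both lie in the lowest quartile of level, where 24.2% of all peaks were lower at 11 °C. The first Cyp304a1 peak is 960 bp outside the gene and thus close to the limit of 1000 bp. Cyp18a1, which inactivates ecdysteroids by oxidation, had 209.8 reads at 11 °C and 205.0 at 25 °C at a peak 1307 bp inside the gene (FDR 0.958). Cyp303a1, needed for mechanosensory organs, and Cyp305a1 had no peak.

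**Figure D4:**
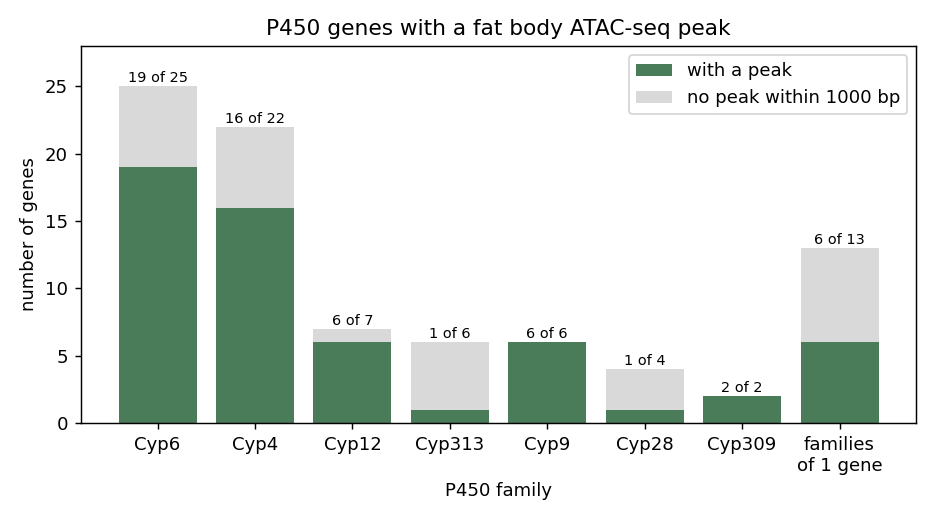
Number of P450 genes with a peak (green) and without one in the gene or within 1000 bp (grey), by family; families of 1 gene are pooled. All 6 Cyp9 genes had a peak, and 5 of 6 Cyp313 and 3 of 4 Cyp28 genes had none.

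Of the 85 P450 genes, 28 had no peak, so the table says nothing of their accessibility beyond that. The share of protein-coding P450 genes with a peak was 66.3%, and 59.4% of the protein-coding genes outside the rule had one. Of the 1942 other protein-coding genes of similar length, 1927 to 2776 bp, 65.2% had one, and of the 41 protein-coding P450 genes in that range 73.2% had one. Among the 28 are 5 Cyp313, 3 Cyp28, 6 Cyp4 and 6 Cyp6 genes. At 7 of the 28 genes no peak midpoint lay within 10 kb, among them Cyp4d21, Cyp28d1, Cyp6a16 and Cyp6a18. For others a peak lay a little further than the limit: 1423 bp from Cyp4s3, 1679 bp from Cyp6a19 and 1821 bp from Cyp6a14.

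Peaks at P450 genes sat mostly at the gene ends, as did those of other genes of 1927 to 2776 bp. In 57 of 73 pairs of gene and peak the midpoint was within 500 bp of an end, or 78.1%, and in 5 it was deeper inside the gene. For protein-coding genes outside the rule of 1927 to 2776 bp the share was 79.0%, and for such genes of any length 60.6%. The 73 pairs hold P450 genes of any length and the pseudogenes, so the sets are not matched in length. The annotation used gives no strand, so start and end of a gene cannot be told apart. The 5 inner peaks are those of Cyp12d1-p, Cyp18a1, Cyp317a1, Cyp4d2 and Cyp4d20. A called difference was seen at 2 of them, Cyp12d1-p and Cyp4d20.

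**Figure D5:**
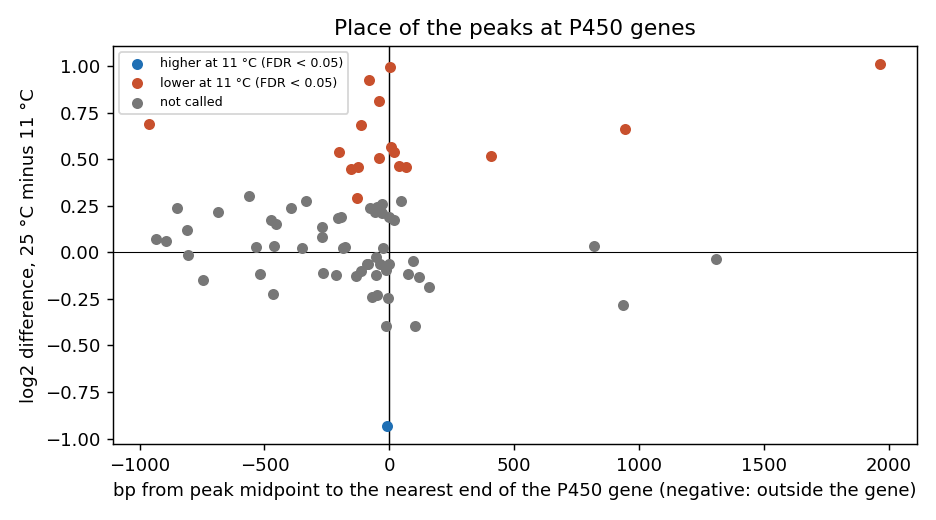
Distance from peak midpoint to the nearest end of the P450 gene (bp, negative outside the gene) and difference (log2, 25 °C minus 11 °C) for the 73 pairs of P450 gene and peak. Most points lie within 500 bp of an end, and the point with the largest difference, Cyp12d1-p, lies 1965 bp inside its gene.

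Many peaks cannot be given to 1 gene. Of the 63 P450 peaks, 43 had a gene outside the superfamily in reach, 10 had 2 P450 genes in reach and 12 had no other gene. Of the 15 peaks lower at 11 °C, 12 had a gene outside the superfamily in reach, and those at Cyp6t2Psi and Cyp12d1-p had no other gene. Of the 16 genes with 2 peaks, 7 had differences of both signs. Peaks of 1 gene differed by a median of 0.25, at most by 1.04 at Cyp4d1.

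Many P450 genes lie in tandem arrays. With P450 genes under 10 kb apart joined, a distance chosen after the values were seen, 46 of the 85 form 16 arrays with 31 peaks, of which 4 were lower at 11 °C. The 39 single genes had 32 peaks, of which 11 were lower and 1 was higher at 11 °C. The longest array, 9 genes from Cyp6a22 to Cyp317a1 over 31.7 kb of 2R, held 6 peaks with differences from -0.28 to 0.24, none called. The array of Cyp4d14, Cyp4d2 and Cyp4ae1 on X held 3 peaks from -0.24 to 0.06, none called. Cyp4d1 lies beside that array but over 10 kb from it, so its called peak (difference 0.92) counts among the 11 of single genes. Over all 8069 peaks 12.2% were lower and 10.0% higher at 11 °C, and nothing is read from the counts by array, which were not tested.

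Genes that work with P450s were described beside the shares of 12.2% lower and 10.0% higher at 11 °C over all peaks, and nothing particular to them is read from their counts. Of 5 redox partner genes 4 had a peak, and 1 of 6 peaks was lower at 11 °C. That peak is at Cpr, the NADPH reductase that feeds electrons to microsomal P450s, with 191.3 reads at 11 °C and 248.4 at 25 °C (FDR 0.0147), while its other peak had 499.0 and 481.2 (FDR 0.825). The 6 genes of heme synthesis had 10 peaks, 2 of them lower and 2 higher at 11 °C. Alas, the first enzyme of the pathway, and Pbgs each had a peak lower at 11 °C (differences 0.36 and 0.58), and Coprox and FeCH, the last enzyme, each had one higher at 11 °C (-0.62 and -0.40). Each of these peaks is also in reach of another gene: Fmo-1 at Alas, CG32100 at Pbgs, Sumo at Coprox and Rift at FeCH. Of the 6 ecdysteroid-synthesis P450s known by other names (phtm, dib, sad, shd, spo and spok) only shd, which makes the active hormone in peripheral tissue, had a peak, with 320.8 reads at 11 °C and 324.1 at 25 °C (FDR 0.927).

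The 6 genes listed here as possible regulators of detoxification genes had 14 peaks, 3 lower and 1 higher at 11 °C. The 3 lower peaks are among 8 at cnc, the fly's Nrf2 factor. The largest difference, in a peak also in reach of fzo, was 71.0 reads at 11 °C against 167.0 at 25 °C (difference 1.23, FDR 1.77e-14). Its other called peaks had 348.7 and 40.3 reads at 11 °C and 424.9 and 54.4 at 25 °C. The 5 cnc peaks that were not called had differences from -0.13 to 0.26, and the one with the highest level had 440.8 reads at 11 °C and 459.6 at 25 °C (FDR 0.727). Keap1, which holds cnc back, had 2 peaks with differences of 0.21 and -0.15, neither called. The Ah receptor homolog ss had a peak with 162.4 reads at 11 °C and 105.3 at 25 °C (FDR 0.000170), and its partner tgo, the nuclear receptor gene Hr96 and maf-S were not called.

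Defining genes of the fat body had peaks at 9 of 10, Fbp1 being without one. Of their 24 peaks 8 were lower at 11 °C and 1 was higher, beside the 12.2% and 10.0% of all peaks. The genes did not move together. Of the 8 lower peaks 6 were at apolpp, the lipophorin precursor gene, whose 7 peaks summed to 750.0 reads at 11 °C and 1723 at 25 °C. The others were at the yolk protein genes Yp1 and Yp3. Yp2 had 202.9 reads at 11 °C and 477.1 at 25 °C (difference 1.23) but was not called (FDR 0.0794). The peak called higher at 11 °C was at srp, a GATA factor gene, whose 5 peaks summed to 959.4 reads at 11 °C and 754.1 at 25 °C. The lipase gene bmm summed to 1080.3 reads at 11 °C and 1048 at 25 °C over 5 peaks, none called. Of genes that mark other cells, none of 3 Malpighian tubule genes had a peak, 1 of 4 hemocyte genes (NimC1), 1 of 5 muscle genes (Mhc, 21.98 reads at 11 °C and 52.6 at 25 °C), 2 of 4 ovary genes and, as given above, 6 of 6 oenocyte genes. A peak shows open chromatin and not expression, so these counts do not show which cells were present.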

How the data were processed

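ATAC-seq was made from fat body of 16 libraries. The build was dm6 and the tools, named without an order, include DiffBind, MACS2, Bowtie2, Picard, bedtools, SAMtools, cutadapt, Trim Galore and FastQC, per the submitters' processing notes. Versions, roles, the scaling, the treatment of duplicates and of multiply mapped reads, and the transposase offset are not given in the sources used here, and each can change levels. The deposited table gives log2 concentrations (mean normalised reads), a log2 fold change fitted by the authors, and the authors' p-value with its FDR over 8069 peaks. The FDR equals a Benjamini-Hochberg adjustment, and over P450 peaks a regression of the fitted fold change on the difference has slope 0.794.

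With Python 3.11.15 and pandas 2.3.3, peaks were joined to genes and the log2 concentration at 11 °C was subtracted from that at 25 °C. No model was refitted and no test was added, since the table has no value per library. The join was checked on simulated data with planted peaks. A peak was called at an authors' FDR under 0.05, with its direction from the fold change. Genes named are those with a called peak, those with the largest differences and the highest or lowest levels, and 18 chosen for their known roles. Others were named after their values were seen. The members and all lists were chosen with earlier results of these data known. Alternatives were other windows, any overlap of the peak, peaks with no other gene in reach, other FDR thresholds and a floor on level. Sequences were not analysed here.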

Additional observations from a re-analysis of the deposited data

How the results depend on the processing

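With a window of 500 or 2000 bp, or any base of the peak in place of its midpoint, the number of genes with a peak, the calls, the median difference and the median level stayed within 1.5 times, 0.05 and 0.1 (log2) of the values given. Removing the cyclophilin genes, also chosen after seeing the data, kept them so too. Restricting peaks to midpoints inside the gene left 21 genes and 8 calls, 8 lower at 11 °C and 0 higher, a median difference of 0.17 and a median log2 level of 7.05. Peaks with no other gene in reach left 12 genes and 3 calls, 2 lower and 1 higher at 11 °C, with a median difference of -0.11 and a median level of 7.29, so the sign of the median turned with this choice. Both restrictions keep fewer peaks; what else they change was not tested. Without the lowest quartile of level, chosen after seeing the data, 8 calls were left, 8 lower at 11 °C and 0 higher. With an FDR under 0.1 there were 2 peaks higher at 11 °C. The authors' fitted fold change in place of the difference gave a median of 0.04, and counting each gene once gave 0.06. No paired analysis was possible because the values used are means per temperature, and for the same reason no library could be left out.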
